A study of Mus musculus with 8 samples.

Results

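Chemokine transcripts of CD8+ T cells were examined in spleen cells from mice lacking Elf4, a transcription factor of the ETS family, and from wild-type C57BL/6 mice. The set comprised 7 chemokine genes that CD8+ T cells are known to make, namely Xcl1, Ccl1, Ccl3, Ccl4, Ccl5, Ccl9 and Cxcl10. Every probe set annotated to 1 of these genes alone was taken, which gave 8 of the 45101 probe sets on the Affymetrix arrays. Ccl9 had 2 probe sets and each other gene had 1. The labels put 2 arrays in each of 4 groups: activated Elf4-/-, activated wild-type, naive Elf4-/- and naive wild-type cells, called knockout and wild type hereafter. Activated cells had been stimulated through CD3, by antibody bound to the plate, and CD28, by antibody in the medium, for 3.5 days in RPMI with 10% FBS and 5% T-stim. Naive cells were left without treatment. The values are intensities on a linear scale, each array having been scaled by the authors, and fold changes and tests used log2(intensity + 16) in a limma fit over all probe sets. The labels give the samples numbers but no word on separate mice or cultures, so the p-values reflect the spread among these samples only, and that spread may be technical.

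Chemokines are small secreted proteins that guide migrating cells by binding G protein-coupled receptors, and most are named for the spacing of their conserved cysteines. CD8+ T cells secrete them when their antigen receptor is engaged, and so draw dendritic cells, macrophages and other lymphocytes to the site. Memory CD8+ T cells also hold ready-made Ccl5 transcripts before stimulation. ETS proteins bind DNA at a GGAA core, and Elf4 is known as a regulator of CD8+ T cell proliferation and homing.

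**Figure D1:**
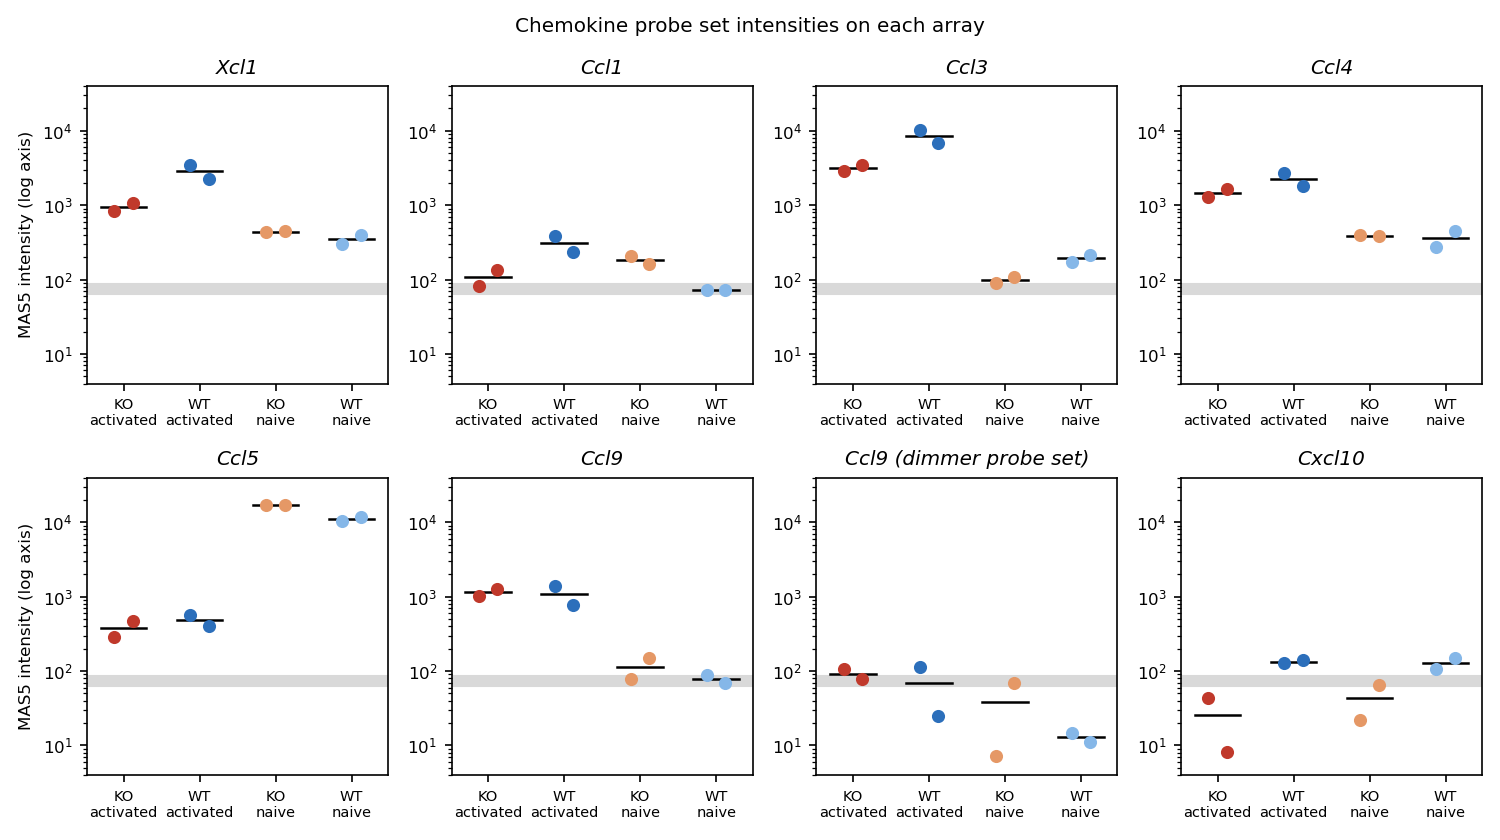
Each panel shows the MAS5 intensity of 1 chemokine probe set on a log axis, with points for the 2 arrays of each group, a line at their mean and a grey band for the range of the 8 array medians (63.9 to 86.0). Xcl1 and Ccl3 are lower on both activated knockout arrays than on both activated wild-type arrays, Ccl5 is high on the 4 naive arrays, and Cxcl10 lies lower on the 4 knockout arrays than on the 4 wild-type arrays.

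Before the chemokines, the arrays were set against their labels. The brighter Elf4 probe set read 76.2 and 80.6 in activated knockout and 83.6 and 134 in activated wild-type cells. It read 165 and 192 in naive knockout and 116 and 199 in naive wild-type cells. The dimmer one read 1.92 and 26.1 in activated knockout, 112 and 58.5 in activated wild-type, 77.6 and 58.2 in naive knockout and 32.4 and 9.37 in naive wild-type cells. Neither passed the test by genotype (adjusted p = 0.814 and 0.373 activated, 0.892 and 0.522 naive), and the place of these probes relative to the deletion was not analysed here. The genotype labels were thus not checked by Elf4. The CD8 subunit Cd8a read 4288 to 17150.2 over the 8 arrays, and the 6 measured markers of the CD8 T cell list were all lower in activated than in naive cells of each genotype. Cd4 read 18.0 to 43.1. Of the others on the CD4 and regulatory T cell list, Foxp3 read 14.8 to 98.7, Cd40lg 43.5 to 98.2 and Zbtb7b 60.9 to 186. Ikzf2 read 3362 and 3005 in activated knockout and 1570 and 1657 in activated wild-type cells. It read 1216 and 1279 in naive knockout and 319 and 334 in naive wild-type cells. Of the 3 tested on that list, 1 was called higher in the knockout in each state. Of all tested probe sets 0.215% were called in activated and 0.562% in naive cells. The B cell transcript Ighm was also bright, at 4004 to 25469. Xist, made only in female cells, read 7703 to 10011 on activated and 60.3 to 172 on naive arrays. Eif2s3y, on the Y chromosome, read 2.93 to 44.0 on activated and 2537 to 5146 on naive arrays. RNA integrity, as the 3'/5' signal ratio of Actb, stood at 5.90 to 11.1 on activated and 1.96 to 2.50 on naive arrays. The Lys spike-in control, bacterial RNA added to the samples, read 55568 to 67756 on activated and 358 to 492 on naive arrays. In every comparison of activated with naive cells, sex, RNA integrity and whatever set the spike-in apart cannot be told apart from activation.

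The comparison of activated knockout with activated wild-type cells asks whether stimulated CD8+ T cells without Elf4 make different amounts of chemokine transcripts. Xcl1 and Ccl3 were lower in the knockout. Those were 2 of 8 chemokine probe sets past the threshold of an adjusted p under 0.05, both lower, where 0.102% of the 27389 probe sets tested were called lower and 0.215% were called in all. The values of 5 of the 8 did not overlap between genotypes, all 5 with the knockout lower. Over all tested probe sets, 47% did not overlap and 24.5% did so with the knockout lower. The median log2 fold change of the 8 was -0.97, and that of all tested probe sets was -0.02.

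Xcl1 encodes lymphotactin, whose receptor Xcr1 sits on cross-presenting dendritic cells. It read 833 and 1056 in activated knockout cells, against 3452 and 2233 in activated wild-type cells. Both knockout values lay under both wild-type values. In the knockout the mean of 944 ± 158 was 3.01-fold lower than the wild-type mean of 2843 ± 862 (SD, n = 2 each), a log2 fold change of -1.55 (SE 0.24, adjusted p = 0.0346). Ccl3, the macrophage inflammatory protein MIP-1alpha and a ligand of Ccr1, read 2849 and 3471 in activated knockout cells, against 10186.5 and 6756 in activated wild-type cells. Again the groups did not overlap. In the knockout the mean of 3159.9 ± 439.7 was 2.68-fold lower than the wild-type mean of 8471 ± 2426 (SD, n = 2 each), a log2 fold change of -1.40 (SE 0.23, adjusted p = 0.0462).

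Both calls lay close to the threshold. They were lost without any 1 of the 4 activated arrays: without knockout replicate 1 or 2 the adjusted p was 0.303 and 0.233 for Xcl1 and 0.366 and 0.297 for Ccl3, and without wild-type replicate 1 or 2 it was 0.391 and 0.0872 for Xcl1 and 0.455 and 0.124 for Ccl3. The log2 fold change stayed between -1.86 and -1.24 for Xcl1 and between -1.69 and -1.10 for Ccl3. With the replicate number as a block the adjusted p was 0.0730 for Xcl1 and 0.0965 for Ccl3. In activated wild-type cells, 7 of the 8 chemokine probe sets read higher on replicate 1 than on replicate 2, beside 49.0% of all tested probe sets. The knockout arrays had the higher Actb 3'/5' ratios, 7.44 and 11.1 in activated knockout against 5.98 and 5.90 in activated wild-type cells, and with that ratio as a covariate the log2 fold change was -2.01 for Xcl1 and -1.76 for Ccl3, at an adjusted p of 0.504 and 0.565. In RNA from a population, fewer cells making a transcript and less of it in each cell cannot be told apart.

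Ccl4 encodes MIP-1beta, a chemokine that is often secreted together with Ccl3. It read 1293 and 1657 in activated knockout cells, against 2669 and 1797 in activated wild-type cells (log2 -0.58, SE 0.27, adjusted p = 0.491). The 2 knockout values lay under the wild-type values, the nearest 2 being 1657 and 1797. Ccl1, the ligand of Ccr8, read 83.0 and 136 in activated knockout cells, against 387 and 232 in activated wild-type cells (log2 -1.36, SE 0.38, adjusted p = 0.204). These groups did not overlap either, and the difference did not pass. Cxcl10, an interferon-induced ligand of Cxcr3, read 43.3 and 8.11 in activated knockout cells, against 129 and 139 in activated wild-type cells (log2 -1.98, SE 0.58, adjusted p = 0.238). Its knockout values differed more from each other than its wild-type values did, and both were under the median of their arrays.

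Ccl5 and Ccl9 had overlapping values in activated cells. Ccl5, also called RANTES, read 284 and 464 in activated knockout cells, against 560.1 and 399.7 in activated wild-type cells (log2 -0.37, 95% interval -0.86 to 0.13, adjusted p = 0.623). Ccl9, MIP-1gamma in the mouse and a ligand of Ccr1, read 1017 and 1273.5 in activated knockout cells, against 1396 and 782 in activated wild-type cells on its brighter probe set (log2 0.12, 95% interval -0.65 to 0.89, adjusted p = 0.947). Its dimmer probe set read 105 and 79.3 in activated knockout cells, against 114 and 24.9 in activated wild-type cells (log2 0.56, adjusted p = 0.870).

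**Figure D2:**
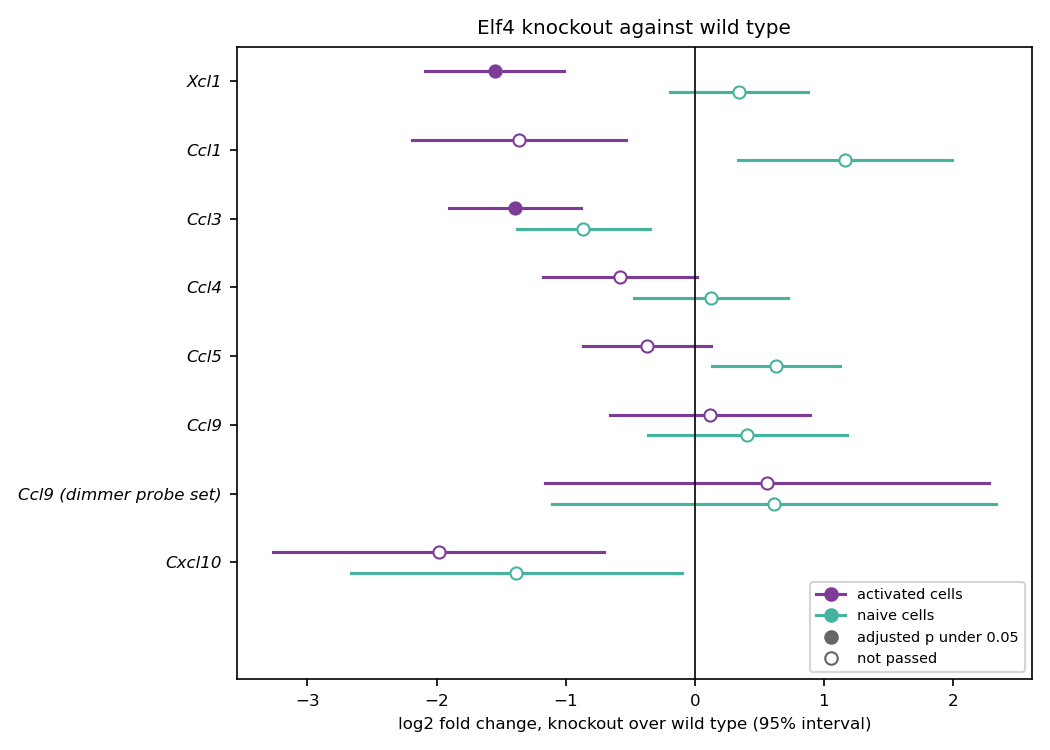
Log2 fold changes of the 8 chemokine probe sets, knockout over wild type, with 95% intervals from the fit, in activated cells and in naive cells. Filled points passed an adjusted p of 0.05, which only Xcl1 and Ccl3 in activated cells did. Xcl1, Ccl1, Ccl4 and Ccl5 have points on opposite sides of 0 in the 2 states.

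The sequences before the starts of the chemokine genes are shown because Elf4 encodes a DNA-binding protein with a known core motif. RefSeq promoter windows of the assembly GRCm38.p6 were matched for 5 of the 7 genes. Ccl4 and Ccl5 had no entry. All 5 genes lie on the minus strand, and the 250 bases before the start are given 5' to 3' along that strand for the 2 genes that passed the test and for Ccl1 and Cxcl10, whose activated groups also did not overlap. Capitals mark matches to the ETS core GGAAGT, or ACTTCC where the match is on the opposite strand. The windows are chr1:164935523-164935772 for Xcl1, chr11:83649379-83649628 for Ccl3, chr11:82179813-82180062 for Ccl1 and chr5:92348890-92349139 for Cxcl10.
Xcl1: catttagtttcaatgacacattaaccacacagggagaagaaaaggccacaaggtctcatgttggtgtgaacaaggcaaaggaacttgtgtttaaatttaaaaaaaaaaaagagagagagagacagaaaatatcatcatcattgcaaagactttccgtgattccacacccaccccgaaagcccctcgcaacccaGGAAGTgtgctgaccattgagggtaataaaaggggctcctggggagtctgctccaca
Ccl3: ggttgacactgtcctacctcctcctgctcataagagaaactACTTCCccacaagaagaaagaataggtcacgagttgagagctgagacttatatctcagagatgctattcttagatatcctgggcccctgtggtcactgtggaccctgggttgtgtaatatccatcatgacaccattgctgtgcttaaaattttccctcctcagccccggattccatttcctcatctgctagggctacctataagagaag
Ccl1: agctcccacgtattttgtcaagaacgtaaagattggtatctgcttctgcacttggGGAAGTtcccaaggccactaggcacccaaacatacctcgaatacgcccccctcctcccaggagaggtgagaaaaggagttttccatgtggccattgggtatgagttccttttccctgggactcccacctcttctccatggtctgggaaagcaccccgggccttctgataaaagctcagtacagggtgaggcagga
Cxcl10: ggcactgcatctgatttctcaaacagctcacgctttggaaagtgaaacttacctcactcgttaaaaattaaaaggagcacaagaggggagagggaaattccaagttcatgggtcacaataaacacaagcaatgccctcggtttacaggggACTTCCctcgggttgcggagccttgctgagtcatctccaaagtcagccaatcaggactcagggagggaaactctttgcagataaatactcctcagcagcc

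The ETS core GGAAGT, searched on both strands, had a match in 5 of the 5 chemokine windows and in 19.7% of 32851 RefSeq windows of the same 250 bases. Each of the 5 windows held 1 match. With the base before the start counted as -1, it began at -57 in Xcl1 and at -195 in Ccl1, and on the opposite strand at -209 in Ccl3, at -100 in Cxcl10 and at -7 in Ccl9. In Ccl1 and Cxcl10 the match overlapped an NF-kB-like match, GGGA and CC with any 4 bases between them, a motif that stood in 2 of 5 chemokine windows and in 17.6% of all windows. The NFAT core GGAAA stood in 5 of 5 and in 55.6%. The AP-1 motif TGANTCA was in the windows of Ccl9 and Cxcl10, 2 of 5, and in 6.75% of all. The interferon response-like motif, GAAA repeated after any 2 bases, was in that of Cxcl10, 1 of 5, and in 2.98% of all. TATAAA was in the window of Ccl9, 1 of 5, and in 12.4% of all. Such a match is a run of letters in a short window and not a measured binding site, and the arrays carry no measure of binding. Ccl5, Ccl9, Ccl3 and Ccl4 lie close together on chromosome 11: Ccl5 spans chr11:83525778-83530518, Ccl9 chr11:83572917-83578636, Ccl3 chr11:83647843-83649378 and Ccl4 chr11:83648624-83664683. Ccl1 lies further off on that chromosome, at chr11:82176666-82179812. The annotated spans of Ccl3 and Ccl4 overlap, and whether their probes lie in the shared stretch was not analysed here.

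**Figure D3:**
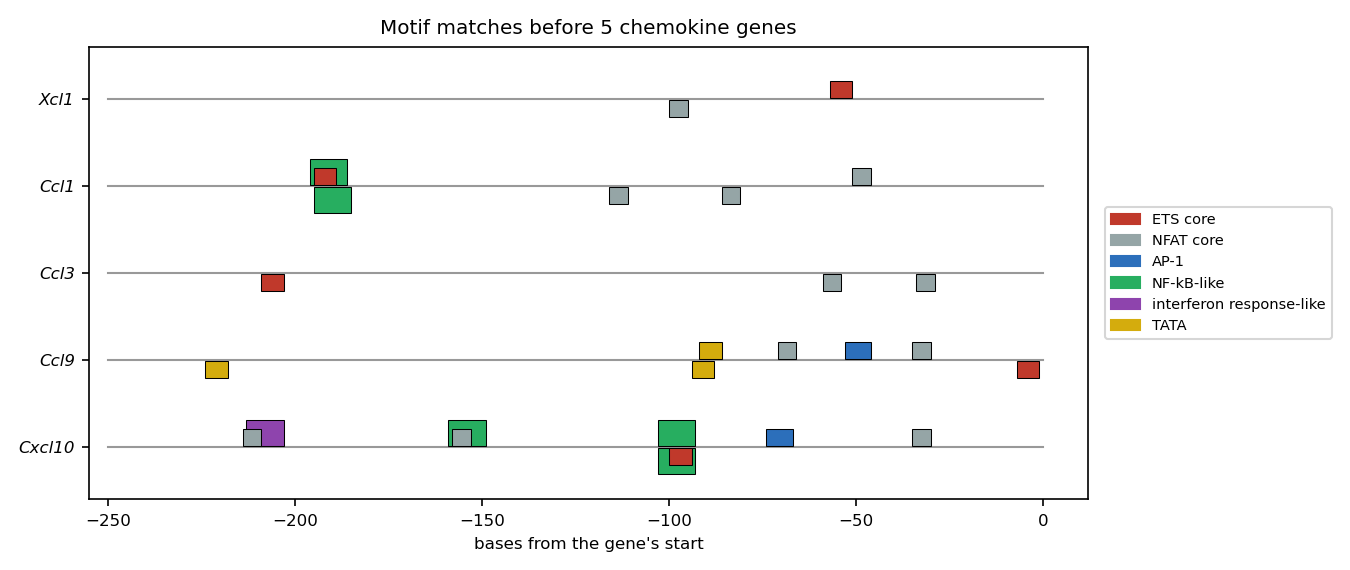
Positions of motif matches in the 250 bases before the start of 5 chemokine genes, with distance from the start on the axis, matches on the gene's strand above each line and those on the opposite strand below it. Each of the 5 windows holds 1 ETS core match, and those of Ccl1 and Cxcl10 lie within an NF-kB-like match.

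In naive cells, the comparison of knockout with wild type called 0 of the 8 chemokine probe sets in the limma fit, where 0.562% of all tested probe sets were called. An unadjusted p under 0.05 was found for 4 of the 8 and for 12.1% of all tested probe sets. The values of 5 did not overlap, 3 with the knockout higher and 2 with it lower, where 38.2% of all tested probe sets did not overlap, 18.4% with the knockout higher and 19.8% with it lower. The median log2 fold change of the 8 was 0.38 and that of all tested probe sets was -0.004.

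Ccl1 read 208 and 163 in naive knockout cells, against 73.2 and 73.4 in naive wild-type cells (log2 1.17, SE 0.38, adjusted p = 0.244). The naive wild-type pair lay near the medians of their arrays and the knockout pair above them. Xcl1 read 441 and 442 in naive knockout cells, against 303 and 392.5 in naive wild-type cells (log2 0.34, 95% interval -0.19 to 0.88, adjusted p = 0.639). Its groups did not overlap, though the wild-type arrays differed from each other by more than the nearest arrays of the 2 groups did. Ccl5 read 17268 and 17084 in naive knockout cells, against 10534 and 11672 in naive wild-type cells (log2 0.63, SE 0.22, adjusted p = 0.295). The knockout pair was higher, and its 2 arrays lay close together.

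The other chemokines of naive cells were lower in the knockout or overlapped. Ccl3 read 90.2 and 107 in naive knockout cells, against 174 and 212 in naive wild-type cells (log2 -0.86, SE 0.23, adjusted p = 0.175). It was thus lower on the knockout arrays of each state. Cxcl10 read 21.7 and 63.95 in naive knockout cells, against 107 and 150.2 in naive wild-type cells (log2 -1.38, SE 0.58, adjusted p = 0.375). Ccl4 read 391.9 and 383 in naive knockout cells, against 275 and 456 in naive wild-type cells (log2 0.12, adjusted p = 0.910), with the knockout values between the wild-type ones. The brighter Ccl9 probe set read 78.0 and 150.3 in naive knockout cells, against 87.5 and 69.8 in naive wild-type cells (log2 0.41, adjusted p = 0.716). The dimmer one read 7.11 and 68.7 in naive knockout cells, against 14.7 and 11.2 in naive wild-type cells (log2 0.62, adjusted p = 0.826). On both Ccl9 probe sets, knockout replicate 2 was the highest naive array.

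Transcripts of other cells also differed between the naive genotypes. The 9 measured granulocyte markers summed to 4714 to 19596 on naive knockout arrays and to 505 to 880.3 on naive wild-type arrays. Of the 9, 4 were called higher in the knockout, where 0.562% of all tested probe sets were called in either direction. The higher knockout sum was that of replicate 2, the array with the higher Ccl9 and Cxcl10 values of the knockout pair. S100a9 and Lcn2, both on the granulocyte list, reached the median on 2 of the 8 arrays, the naive knockout ones. They thus entered the test through the group in which they were high. The 12 macrophage and monocyte markers summed to 4098 to 6875 on naive knockout and 2519 to 3119 on naive wild-type arrays, with 0 of the 9 tested called. The 5 measured natural killer cell markers, transcripts of cells that also make Ccl5 and Xcl1, summed to 6245 to 8981 on naive knockout and 2643 to 4038 on naive wild-type arrays. Gzma and Eomes, the latter also on the list of regulators below, were the brightest of the 5 on every array. Gzma read 2376 and 4730 on naive knockout and 459 and 2493 on naive wild-type arrays. Eomes read 2814 and 3132 on naive knockout and 2027 and 1225 on naive wild-type arrays. Of the 4 tested, 1 was called higher in naive knockout cells, Klra8, which read 664 and 588 on naive knockout and 62.1 and 126 on naive wild-type arrays (log2 2.60, adjusted p = 0.0493) and reached the array median on 3 of the 8 arrays, all naive. Klre1 and Eomes were above 0 without passing (log2 1.78 and 0.91, adjusted p = 0.0980 and 0.140). Ncr1, which defines those cells and was not tested, read 8.24 and 45.1 on naive knockout and 26.0 and 7.93 on naive wild-type arrays. In activated cells the natural killer sums were 3017 to 3072 in knockout and 2665 to 2701 in wild type. Of these markers only Gzma had the higher mean in activated knockout cells, at 1812 and 1825 against 635 and 1062 in activated wild-type cells. Eomes, Klre1, Klra8 and Ncr1 had lower means in activated knockout than in activated wild-type cells. The part of these cells in the chemokine values was not tested.

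Whether the genotype difference itself changed with the state was tested as an interaction, the log2 fold change in activated cells minus that in naive cells. None of the 8 chemokine probe sets passed in limma, 0 of 8, where 0.0584% of all tested probe sets did. An unadjusted p under 0.05 was found for 3 of the 8 and for 9.73% of all tested probe sets. All 8 differences were under 0, from -2.53 to -0.05, as were 51.8% of all, and the median of all tested probe sets was -0.02. Ccl1 had -2.53 (SE 0.53, adjusted p = 0.132), with the knockout above the wild type in naive cells and under it in activated cells. Xcl1 had -1.89 (SE 0.34, adjusted p = 0.0925) and Ccl5 -0.998 (SE 0.32, adjusted p = 0.314). For Ccl3 the difference was -0.53 (95% interval -1.26 to 0.19, adjusted p = 0.653). A state-dependent effect was therefore not shown for any of the 8.

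Cxcl10 was the member whose 4 knockout values, 8.11 to 63.95, all lay under its 4 wild-type values, 107 to 150.2. Over all tested probe sets, 314, or 1.15%, had every knockout array under every wild-type array, and 279, or 1.02%, had the opposite. Cxcl10 reached the median intensity on 4 of the 8 arrays, the wild-type ones, so it entered the test through the group in which it was high. The mean of its knockout effects in both states was -1.68 (SE 0.41, adjusted p = 0.109), a contrast added after the data were seen. In that contrast 1 of the 8 chemokine probe sets passed, where 0.551% of all tested probe sets did and 0.256% were called lower. It was Ccl3, with a mean effect of -1.13 (SE 0.16, adjusted p = 0.0180). That call was lost without any 1 of the 4 activated arrays, at an adjusted p of 0.128 and 0.0944 without knockout replicate 1 or 2 and of 0.130 and 0.0595 without wild-type replicate 1 or 2. Xcl1 had -0.60 (adjusted p = 0.163) and Ccl1 -0.10 (adjusted p = 0.918).

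Most of the set changed on activation. In the knockout 4 of the 8 probe sets were higher and 1 lower in activated than in naive cells, where 18.2% of all tested probe sets were called higher, 23.4% lower and 41.6% in all. In the wild type 5 were higher and 1 lower, where 17.4% of all were called higher, 21.8% lower and 39.1% in all. The members' median log2 fold change was 1.17 in the knockout and 2.20 in the wild type, and that of all tested probe sets was -0.16 in each.

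Ccl3 had the largest rise of the 8 in both genotypes. It read 2849 and 3471 in activated against 90.2 and 107 in naive knockout cells, a 32.0-fold difference of means (log2 4.79, SE 0.23, adjusted p = 1.20e-07). In the wild type it read 10186.5 and 6756 in activated against 174 and 212 in naive cells, a 43.9-fold difference (log2 5.32, SE 0.23, adjusted p = 6.87e-08). Ccl4 was 3.81-fold higher in activated than in naive knockout cells (log2 1.88, SE 0.27, adjusted p = 0.000222) and 6.11-fold higher in the wild type (log2 2.57, SE 0.27, adjusted p = 2.59e-05). The brighter Ccl9 probe set was 10.0-fold higher in activated knockout cells (log2 3.21, SE 0.35, adjusted p = 3.09e-05) and 13.8-fold higher in activated wild-type cells (log2 3.49, SE 0.35, adjusted p = 1.87e-05). Its dimmer probe set had log2 1.28 in the knockout and 1.34 in the wild type and did not pass (adjusted p = 0.218 and 0.205), although no activated value lay under a naive value of the same genotype. That probe set reached the median on 3 of the 8 arrays, all activated, so it entered the test through the groups in which it was high.

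Xcl1 was 2.14-fold higher in activated than in naive knockout cells (944 ± 158 against 442 ± 0.717, SD, n = 2 each), a log2 fold change of 1.06 (SE 0.24, adjusted p = 0.00485). In the wild type it was 8.17-fold higher (2843 ± 862 in activated against 348 ± 63.2 in naive cells), a log2 fold change of 2.95 (SE 0.24, adjusted p = 4.48e-06). The knockout call was lost without activated knockout replicate 2 (log2 0.89, adjusted p = 0.0569). Ccl1 differed between the genotypes in what passed. It had 83.0 and 136 in activated against 208 and 163 in naive knockout cells, a difference that did not pass (log2 -0.71, SE 0.38, adjusted p = 0.160). It rose in the wild type, with 387 and 232 in activated against 73.2 and 73.4 in naive cells (log2 1.82, SE 0.38, adjusted p = 0.00273). As given above, the difference between these 2 effects did not pass.

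Ccl5 was the member that fell. It read 284 and 464 in activated against 17268 and 17084 in naive knockout cells, a 45.9-fold lower mean (log2 -5.50, SE 0.22, adjusted p = 4.18e-08). In the wild type it read 560.1 and 399.7 in activated against 10534 and 11672 in naive cells, a 23.1-fold lower mean (log2 -4.50, SE 0.22, adjusted p = 1.55e-07). In the knockout 0.230% of all tested probe sets had a larger log2 fold change of either sign, and in the wild type 0.730%. Natural killer marker sums were 3017 to 3072 in activated against 6245 to 8981 in naive knockout cells, and 2665 to 2701 in activated against 2643 to 4038 in naive wild-type cells. As given above, Gzma and Eomes were the brightest markers in these sums. Macrophage marker sums were 842 to 878.5 in activated against 4098 to 6875 in naive knockout and 669 to 735 in activated against 2519 to 3119 in naive wild-type cells. B cell marker sums were 5618 to 6596 in activated against 21537 to 26036 in naive knockout cells and 4432 to 4629 in activated against 27065 to 29172 in naive wild-type cells, with 5 of the 6 markers called lower in each genotype. Of the 9 granulocyte markers, 7 were called lower in activated than in naive knockout cells and 0 in the wild type. Over all tested probe sets 23.4% were called lower in the knockout and 21.8% in the wild type. The part of other cells in the fall of Ccl5 was not tested. Cxcl10 passed in neither genotype (log2 -0.54, adjusted p = 0.499 in the knockout and log2 0.07, 95% interval -1.22 to 1.35, adjusted p = 0.941 in the wild type).

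**Figure D4:**
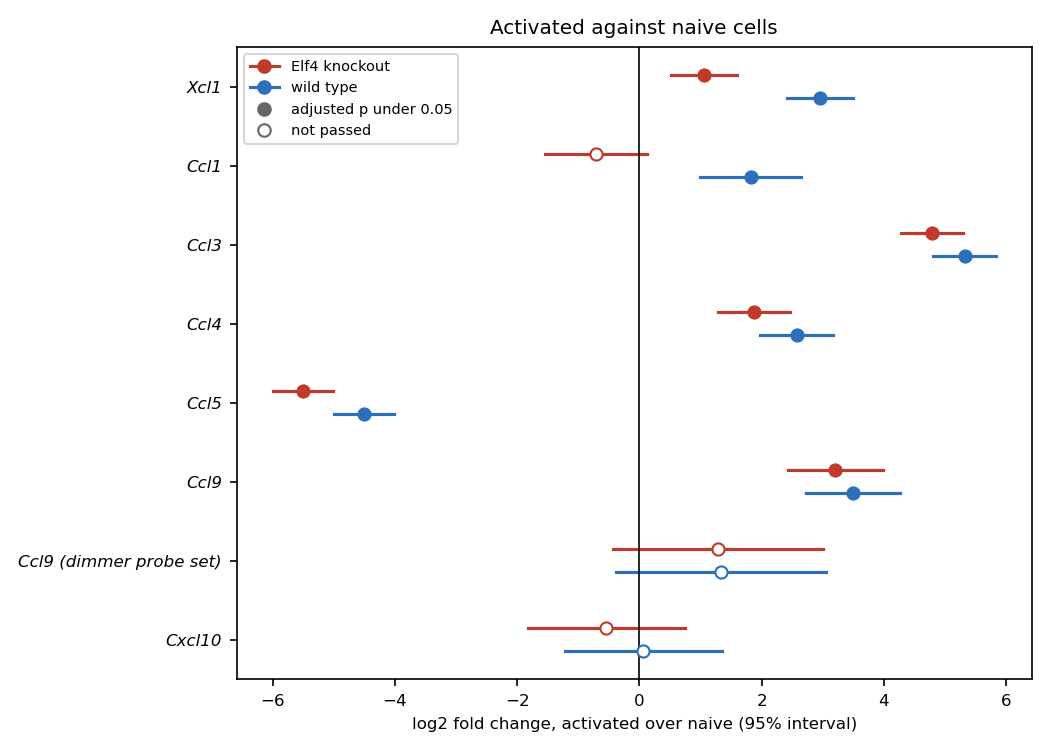
Log2 fold changes of the 8 chemokine probe sets, activated over naive, with 95% intervals from the fit, in the Elf4 knockout and in the wild type. Filled points passed an adjusted p of 0.05. Ccl3, Ccl4, the brighter Ccl9 probe set and Xcl1 lie above 0 and Ccl5 below 0 in both genotypes, and Ccl1 passed in the wild type alone.

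The groups can be ordered for each gene by mean intensity. For Xcl1 the order from the highest was activated wild type, activated knockout, naive knockout, naive wild type, and no neighbours overlapped. For Ccl1 it was activated wild type, naive knockout, activated knockout, naive wild type, again without overlap of neighbours. For Ccl3 it was activated wild type, activated knockout, naive wild type, naive knockout, without overlap, and the highest mean was 85.7 times the lowest. Ccl4 had activated wild type, activated knockout and then the naive groups, which overlapped. Ccl5 had naive knockout, naive wild type and then the activated groups, which overlapped. The activated groups overlapped on the brighter Ccl9 probe set, as did the naive groups, and every neighbour overlapped on the dimmer one. For Cxcl10 the wild-type groups overlapped with each other, the knockout groups did too, and a gap separated the genotypes.

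The genes whose profiles over the 8 arrays lay nearest to each member, by the root mean square log2 difference per array after centring, differed from member to member. For Xcl1 they were Apcdd1 (0.37), Ccl4 (0.38) and D17H6S56E-5 (0.39), so 1 of its 3 nearest genes was another chemokine of the set. For Ccl1 they were Mfsd6 (0.33), Iigp1 (0.34) and Bspry (0.35). Ccl3 lay nearest to Rgs16 (0.42), Cenpi (0.55) and Pf4 (0.55), and Ccl4 to Ercc6l (0.21), Pole (0.22) and Eif4ebp1 (0.22). Nearest to Ccl5 were Klf3 (0.34), Kcna2 (0.38) and Baiap3 (0.38), to the brighter Ccl9 probe set Serpinb9 (0.20), Acsl4 (0.21) and Dennd5a (0.23), and to Cxcl10 0610005C13Rik (0.30), Barx1 (0.33) and Aqp4 (0.33). Over 8 arrays in 4 groups such nearness is a description of these arrays.

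Of 30 further chemokine genes, 28 had a probe set of their own and 19 were bright enough to be tested. None of the 19 passed by genotype in either state, 0 of 19 in limma, with an unadjusted p under 0.05 for 0 in activated and 5 in naive cells. Of all tested probe sets 0.215% were called in activated and 0.562% in naive cells, and 12.1% had such an unadjusted p in naive cells. On activation 18.2% of all tested probe sets were called higher in the knockout and 17.4% in the wild type. Of the 19, 2 were higher in each genotype, with a list median of 0.54 in the knockout and 0.03 in the wild type. They were Pf4, or platelet factor 4, and Ppbp, both known from platelets. Pf4 read 2330 and 2523 in activated against 38.0 and 86.3 in naive knockout cells (log2 5.04, adjusted p = 8.02e-07) and 2944 and 2316 in activated against 97.7 and 169 in naive wild-type cells (log2 4.18, adjusted p = 3.18e-06). Ppbp had log2 5.25 in the knockout and 3.71 in the wild type (adjusted p = 1.29e-06 and 1.67e-05). Ppbp reached the array median on 4 arrays, the activated ones, so it entered the test through the groups in which it was high. The platelet integrin Itga2b, from the marker list, read 411 and 399 in activated knockout, 411 and 324 in activated wild-type, 269 and 241 in naive knockout and 218 and 267 in naive wild-type cells. From the same list, Gp1bb read 191 and 167 in activated and 68.2 and 104 in naive knockout cells. In the wild type Gp1bb read 163 and 82.6 in activated and 69.1 and 83.5 in naive cells. Gp9 read 49.2 or less on every array. The part of platelets in the Pf4 and Ppbp values was not tested. Without naive wild-type replicate 1, 4 of the 19 were called on activation in the wild type. Cxcl9 and Cxcl11, which share the receptor Cxcr3 and interferon induction with Cxcl10, read 120.6 or less on every array and did not pass in any comparison.

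Of 23 chemokine receptor genes, 21 had a probe set of their own and 17 were tested. None of the 17 passed by genotype in either state, 0 of 17 in limma, with an unadjusted p under 0.05 for 3 in activated and 2 in naive cells. Of all tested probe sets 0.215% were called in activated and 0.562% in naive cells, and 12.1% had such an unadjusted p in naive cells. On activation 1 was higher and 8 were lower in each genotype, with a list median of -0.94 in the knockout and -1.01 in the wild type. Over all tested probe sets 18.2% were called higher and 23.4% lower in the knockout, and 17.4% and 21.8% in the wild type. The one that rose was Ccr4 (log2 2.93 in the knockout and 2.16 in the wild type, adjusted p = 0.000967 and 0.00681). Ccr4 reached the median on 4 of the 8 arrays, the activated ones, so it entered the test through the groups in which it was high. Cxcr3, the receptor of Cxcl10, read 308 and 360 in activated against 9466 and 7013 in naive knockout cells (log2 -4.55, adjusted p = 4.18e-08) and 464 and 563 in activated against 6183 and 6270 in naive wild-type cells (log2 -3.57, adjusted p = 1.94e-07). Ccr8, the receptor of Ccl1, read 271 and 120.1 in activated knockout, 21.5 and 60.2 in activated wild-type, 84.0 and 8.66 in naive knockout and 20.9 and 43.0 in naive wild-type cells. Both activated knockout values were the highest, and the difference from activated wild type did not pass (log2 1.88, adjusted p = 0.399). Ccr8 reached the median on 3 of the 8 arrays, all of them knockout, so it entered the test through the genotype in which it was high. Xcr1, the receptor of Xcl1, read 70.3 or less on every array and was not tested. Cxcr6, Ccr9, Ccr7 and Cxcr5 were among those that fell on activation in each genotype. Ccr9 reached the median on 4 of the 8 arrays, the naive ones, and so entered the test through the groups in which it was high.

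Of 12 cytokine genes that activated T cells secrete beside chemokines, all 12 were tested, and 10 had a log2 fold change above 0 in activated knockout against activated wild-type cells. Their median, with 1 probe set per gene, was 0.53. The 8 chemokine probe sets, 2 of them for Ccl9, had -0.97 and all tested probe sets -0.02. A single cytokine, 1 of the 12, passed in that comparison, where 0.215% of all tested probe sets did. It was Il24, a cytokine of the interleukin-10 family, which read 3659 and 3492 in activated knockout cells, against 872 and 1056 in activated wild-type cells (log2 1.88, SE 0.25, adjusted p = 0.0159). The call was lost without any 1 of the 4 activated arrays, at an adjusted p of 0.252 and 0.280 without knockout replicate 1 or 2 and of 0.280 and 0.125 without wild-type replicate 1 or 2. In naive cells, where 0.562% of all tested probe sets were called, Il24 was the 1 cytokine of 12 called. It was lower in the knockout, at 15.1 and 11.4 in naive knockout against 64.2 and 61.4 in naive wild-type cells (log2 -1.43, adjusted p = 0.0361). All 4 of those values lay under the medians of their arrays, and Il24 reached the median on 4 of the 8 arrays, the activated ones, so it entered the test through the groups in which it was high. That naive call was lost in 15 of 22 alternatives. Among them were an offset of 64, quantile scaling, median centring, no filter (adjusted p = 0.0563) and no trend in the prior (adjusted p = 0.126). The 4 naive arrays alone (adjusted p = 0.641), array weights, the replicate block and the Actb ratio also lost it. So did leaving out either activated knockout array, either activated wild-type array, naive knockout replicate 2 or naive wild-type replicate 1. With 1 array left out its log2 fold change stayed between -1.52 and -1.34. Il2, the T cell growth factor, read 1080.4 and 984 in activated knockout cells, against 475 and 413 in activated wild-type cells (log2 1.19, adjusted p = 0.298), and Il3 read 775 and 829.9 in activated knockout against 342 and 391.8 in activated wild-type cells (log2 1.10, adjusted p = 0.338). Neither overlapped, and neither passed; both were named after their values had been seen, as were Ccr8, Xcr1, Cxcl9 and Cxcl11. On activation 10 of the 12 rose and 1 fell in the knockout, and 9 rose and 1 fell in the wild type, the one that fell being Ltb. Over all tested probe sets 18.2% were called higher and 23.4% lower in the knockout, and 17.4% and 21.8% in the wild type. Csf2, Il2, Il3, Il10 and Il24 reached the median on 4 of the 8 arrays, the activated ones. They thus entered the test through the groups in which they were high. Ifng, the interferon gamma gene, read 38935 and 45856 in activated against 657 and 549.7 in naive knockout cells (log2 6.10, adjusted p = 1.33e-07). In the wild type it read 38417 and 32820.0 in activated against 1017 and 2382 in naive cells (log2 4.50, adjusted p = 9.92e-07).

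**Figure D5:**
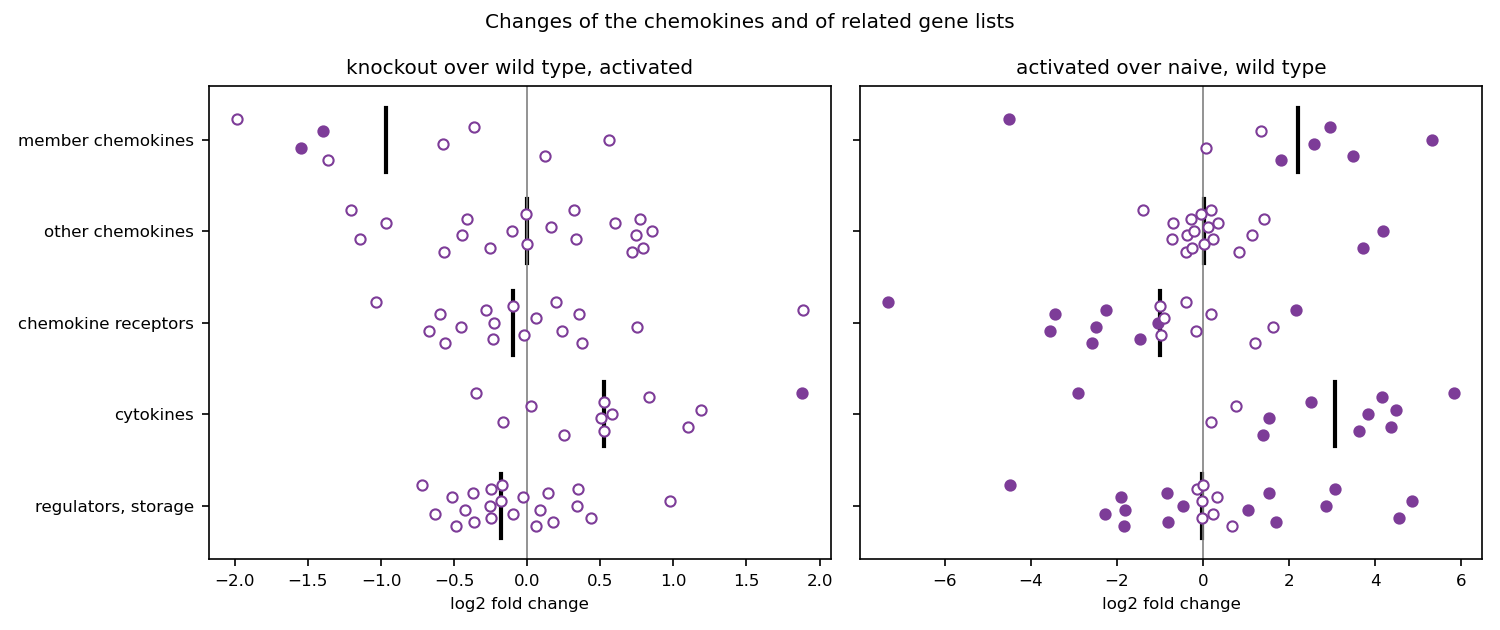
Log2 fold changes of the chemokine probe sets and of the 4 related gene lists, knockout over wild type in activated cells on the left and activated over naive in the wild type on the right. The chemokine row has 1 point per probe set, so 2 for Ccl9, and the 4 lists have 1 point per gene. Points are filled where the adjusted p was under 0.05, and a bar marks the median of each row. In activated cells the median of the 8 chemokine probe sets lies at -0.97 and that of the cytokine genes at 0.53.

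Regulators of these genes, proteins that destabilise their transcripts and the granule proteoglycan Srgn made up a list of 24, of which 22 were tested. In activated cells 0 of the 22 passed by genotype in limma, with an unadjusted p under 0.05 for 5. Of all tested probe sets 0.215% passed there. In naive cells, where 0.562% of all tested probe sets were called, 2 were lower in the knockout and none was higher. These were Zfp36, or tristetraprolin, which promotes decay of AU-rich cytokine and chemokine mRNAs, and its relative Zfp36l2. Zfp36 read 3158 and 3800.1 in naive knockout cells, against 7892 and 8351 in naive wild-type cells (log2 -1.22, SE 0.17, adjusted p = 0.0143). Zfp36l2 read 7483 and 9292 in naive knockout cells, against 15567 and 16007 in naive wild-type cells (log2 -0.92, SE 0.16, adjusted p = 0.0321). The Zfp36 call was lost without activated wild-type replicate 1 or 2 (adjusted p = 0.0574 and 0.0561), which enter through the shared estimate of spread, and that of Zfp36l2 without any 1 of the 8 arrays (adjusted p = 0.0526 to 0.106). In all, the Zfp36 call was lost in 5 of 23 alternatives. Among them were no trend in the prior (adjusted p = 0.149), the 4 naive arrays alone (0.148) and the Actb ratio (0.0819). The Zfp36l2 call was lost in 16 of 23. Among these were quantile scaling, median centring, no trend (adjusted p = 0.265), the 4 naive arrays alone (0.240), array weights, the replicate block and the Actb ratio. On activation 8 of the 22 were higher and 9 lower in the knockout, and 7 were higher and 8 lower in the wild type. Over all tested probe sets 18.2% were called higher and 23.4% lower in the knockout, and 17.4% and 21.8% in the wild type. Irf4 and Bhlhe40, transcription factors of activated T cells, rose in each genotype, and Irf1 and Zfp36 fell in each. Zfp36 read 264 and 243 in activated knockout and 355 and 336 in activated wild-type cells. The lists were chosen with earlier results of these data in view, so their counts are descriptions. The share of all tested probe sets with an unadjusted p under 0.05 by genotype was not taken in activated cells.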

How the data were processed

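RNA of 8 samples was hybridised to Affymetrix arrays, 1 array a sample, in 4 groups of 2 taken from the labels. The authors deposited an intensity on a linear scale for each of 45101 probe sets, made with MAS5 per the submitters' processing notes; the sources used here do not give a version. The deposited values have a mean of 500.0 on every array after 2% trimming at each end. No depth applies to arrays, and their number limits the precision.

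Probe sets were named through the platform annotation: 34945 had 1 symbol, 932 several and 9224 none, and 34741 of the 34945 symbols matched RefSeq while 204 were kept as given. After removal of 64 controls, probe sets that reached the array median on 2 or more of 8 arrays were tested, which left 27389 and all 8 chemokine probe sets. A limma model (limma 3.58.1, R 4.3.3) with 4 group means and a trended prior variance was fitted to log2(intensity + 16), with 4 residual and 6.68 prior degrees of freedom. P-values were adjusted over all 27389 by Benjamini-Hochberg, threshold 0.05, two-sided. The offset of 16 makes fold changes of dim genes too small. Comparisons share arrays: each activated or naive group enters a genotype and an activation contrast. The fit was tested on simulated data. Figures used matplotlib 3.10.9 under Python 3.11.15.

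The members and gene lists were chosen with earlier results of these data known. Every probe set of 1 member alone is described, up to 4 genes past the threshold are named per list and contrast, and the 3 nearest profiles per member are given. Alternatives changed the offset, scaling, filter, prior, samples, weights, replicate block, call rule, RNA integrity term and arrays left out, and left out probe sets that may cross-hybridise. Same-numbered arrays correlated between -0.17 and 0.07 after removal of group means, so the numbers were not taken as pairs. The labels give no batch.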

Additional observations from a re-analysis of the deposited data

Results flagged for a closer look

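Il24, a cytokine of the interleukin-10 family listed beside the chemokines, differed between genotypes in opposite directions in the 2 states. It read 3659 and 3492 in activated knockout against 872 and 1056 in activated wild-type cells, and 15.1 and 11.4 in naive knockout against 64.2 and 61.4 in naive wild-type cells. The knockout effect in activated minus that in naive cells was 3.31 on the log2 scale (adjusted p = 0.0127), 1 of the 16 probe sets that passed this test among 27389. The naive values all lay under the medians of their arrays, and Il24 entered the test through the 4 activated arrays, on which it reached the median. Its naive effect, -1.43 on the log2 scale, is thus a difference between dim values. The interaction was lost without any 1 of the 4 activated arrays, at an adjusted p of 0.200 and 0.141 without knockout replicate 1 or 2 and of 0.167 and 0.0885 without wild-type replicate 1 or 2. The call was also lost without the trend in the prior (log2 3.31, adjusted p = 0.118) and with a term for the Actb ratio (log2 3.43, adjusted p = 0.689).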

How the results depend on the processing

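Of 1036 alternative values for the chemokine probe sets, 976 kept direction and call, 34 lost a call and 26 changed sign. The count of 2 chemokine probe sets called in activated knockout against wild type became 1 with no offset and 1 with no filter, 0 under quantile scaling, 0 with each array centred on its median, 0 without the prior's trend, 0 with the replicate block and 0 with a term for the Actb ratio, and lay between 0 and 2 when 1 array was left out. The cause was not tested. The count of 1 for the mean of both states became 0 without the trend and 0 with the Actb ratio, and 0 to 1 when 1 array was left out. The Actb ratio separates the states by itself, so this term takes up most of the activation contrast: 6 calls became 2 in the wild type and 5 became 0 in the knockout, and signs changed to -0.59 for Xcl1, -0.28 for Ccl4 and 3.35 for Cxcl10 (activation in the knockout), -0.073 for the brighter Ccl9 probe set (activated, genotype), 0.49 for the dimmer one and 0.87 for Cxcl10 (interaction) and -0.088 for Ccl5 (mean of both states). The other sign changes came when 1 array was left out, all in uncalled results. Log2 values then spanned -0.23 to 0.47 for Ccl4, -0.0039 to 0.82 for the brighter and -0.32 to 1.55 for the dimmer Ccl9 probe set in naive knockout against wild type, and -0.29 to 0.53 and -0.27 to 1.39 for the same probe sets in activated cells. They spanned -1.19 to 0.11 (knockout) and -0.15 to 0.28 (wild type) for Cxcl10 on activation, -0.70 to 0.12 and -0.99 to 0.88 for Ccl9 and -1.25 to 0.046 for Cxcl10 in the interaction, and -0.27 to 0.077 for Ccl1 and -0.038 to 0.30 for Ccl5 in the mean of both states.

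Counts over all probe sets moved more. Activated knockout against wild type had 59, and 31 centred (20 higher, 11 lower, against 31 and 28), 7 without the trend, 92 with a robust prior, 719 from its 4 arrays alone, 438 with array weights, 26 with the replicate block, 6 with the Actb ratio and 8 to 103 with 1 array left out. Naive knockout against wild type had 154, and 102 with no filter, 3 without the trend, 5 from its 4 arrays alone, 57 with weights, 18 with the Actb ratio and 27 to 235 with 1 array left out; centred, 88 were higher and 33 lower, against 86 and 68. The interaction had 16, and 26 at an offset of 64, 0 without the trend, 26 robust, 30 with weights, 0 with the Actb ratio and 0 to 84 with 1 array left out. The mean of both states had 151, and 229 at an offset of 64, 3 without the trend, 251 robust, 87 with the replicate block, 64 at a log2 change of at least 1, 14 with the Actb ratio and 12 to 319 with 1 array left out; centred, 80 were higher and 27 lower, against 81 and 70. With the Actb ratio, 484 of 10714 and 0 of 11396 activation calls were left as counts in the wild type and knockout. Centring gave 5448 higher and 4424 lower on activation in the wild type, against 4756 and 5958. Centring moved the median of all probe sets by 0.19 on activation in the wild type, 0.12 in the knockout and 0.10 in naive knockout against wild type, and quantile scaling by 0.13 in each activation contrast. Crossing the replicate numbers of the naive arrays, added after the data were seen, called 0 chemokine probe sets and 148 of all in naive cells.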
